A study of Mus musculus with 6 samples.

Results

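Interleukin and TNF family receptors were described in Ba/F3 cells that carried the RPL10 R98S mutation or the WT protein. Members were taken by gene symbol. They were the rows whose symbol was Il, a number and r, or Tnfrsf and a number, leaving out Il3ra and Il7r. The rule found 59 of 41255 listed genes, of which 39 were named as interleukin receptors and 20 as TNF receptors. One of them, Il1rn, matches by its letters but encodes a secreted antagonist of the interleukin-1 receptor.

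Ba/F3 is a mouse lymphoid line that resembles pro-B cells and needs interleukin-3 to grow. All 6 cultures had received a human RPL10 cDNA by retroviral transfer, WT in clones 28, 29 and 36 and R98S in clones 11, 13 and 35. A short hairpin RNA against the endogenous mouse Rpl10 was present in every culture, controls included, so both groups differ from unmodified Ba/F3 cells. Each culture was grown from a single cell and gave 1 polyA mRNA library after 5 min of cycloheximide at 100 µg/ml, so a difference between the groups rests on 3 clones against 3. Libraries held 21786776 to 24204991 reads on genes. The deposited level of Rpl10, to which reads of the human cDNA may have aligned, lay between 1883 and 3156 normalized read counts, with overlapping groups (log2 fold change -0.07, limma adjusted p = 0.871). Of 11 markers of B cells and their precursors, 5 had no more than 3 reads in any library, Pax5, Vpreb1, Igll1, Rag1 and Blnk.

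Type I interleukin receptors, and the type II receptors related to the interferon receptors, have no enzyme of their own. Ligand brings their chains together, Janus kinases bound to the tails phosphorylate STAT proteins, and many ligands share a signalling chain such as the common gamma chain. Receptors of the interleukin-1 and interleukin-17 families recruit adaptors that lead to NF-kappaB. TNF receptors bind trimeric ligands of the TNF family and recruit either death domain proteins or TRAF proteins, and a few lack a signalling tail and act as decoys.

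Promoter windows of 5 members are shown as a description, and a link between them and the differences below was not tested. Tnfrsf1a had the smallest adjusted p of the receptors, and Tnfrsf9 and Il4ra had the highest levels. Tnfrsf11a was far lower in R98S clones 11 and 35 alone. Il21r lies near Il4ra with the opposite sign of difference, which for Il4ra did not pass the test. The 5 were chosen after their values were seen. Each window runs from 250 bases before to 50 bases after the RefSeq start on GRCm38.p6, all on the plus strand, 5′ to 3′, with every CG dinucleotide in capitals.
Tnfrsf1a, chr6:125349473-125349772: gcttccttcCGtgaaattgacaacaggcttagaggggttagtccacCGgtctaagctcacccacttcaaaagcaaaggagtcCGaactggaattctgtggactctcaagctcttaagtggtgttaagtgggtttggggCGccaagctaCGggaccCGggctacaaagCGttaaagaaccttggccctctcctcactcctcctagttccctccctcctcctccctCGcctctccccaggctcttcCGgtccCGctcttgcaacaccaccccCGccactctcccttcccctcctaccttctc
Tnfrsf9, chr4:150919905-150920204: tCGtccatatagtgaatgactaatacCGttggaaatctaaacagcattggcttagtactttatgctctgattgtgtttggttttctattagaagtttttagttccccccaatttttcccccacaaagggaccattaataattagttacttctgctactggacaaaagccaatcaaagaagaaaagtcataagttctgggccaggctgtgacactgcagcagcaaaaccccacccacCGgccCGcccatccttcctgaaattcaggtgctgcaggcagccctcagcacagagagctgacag
Tnfrsf11a, chr1:105780473-105780772: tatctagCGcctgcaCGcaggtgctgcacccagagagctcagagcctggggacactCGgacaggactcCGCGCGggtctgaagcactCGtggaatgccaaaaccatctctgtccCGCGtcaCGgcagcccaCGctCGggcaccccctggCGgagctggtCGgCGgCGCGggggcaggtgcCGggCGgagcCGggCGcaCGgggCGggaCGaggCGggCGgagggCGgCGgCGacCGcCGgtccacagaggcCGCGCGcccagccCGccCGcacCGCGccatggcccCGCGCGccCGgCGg
Il4ra, chr7:125552021-125552320: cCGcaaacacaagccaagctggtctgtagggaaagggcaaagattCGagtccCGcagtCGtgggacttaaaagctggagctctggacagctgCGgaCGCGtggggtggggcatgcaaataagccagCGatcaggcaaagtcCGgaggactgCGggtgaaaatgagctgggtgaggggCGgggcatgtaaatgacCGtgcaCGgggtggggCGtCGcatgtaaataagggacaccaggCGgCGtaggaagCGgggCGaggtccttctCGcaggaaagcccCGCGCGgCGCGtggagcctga
Il21r, chr7:125603179-125603478: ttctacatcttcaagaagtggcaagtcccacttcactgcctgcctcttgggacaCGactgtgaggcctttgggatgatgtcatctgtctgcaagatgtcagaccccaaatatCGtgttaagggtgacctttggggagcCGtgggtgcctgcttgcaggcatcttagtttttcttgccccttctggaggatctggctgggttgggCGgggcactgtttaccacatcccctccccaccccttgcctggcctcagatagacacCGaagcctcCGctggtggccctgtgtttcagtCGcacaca

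The windows differ widely in CG content. Tnfrsf11a held 43 CG dinucleotides, a number reached by 2.51% of the 27025 mouse promoter windows, Il4ra 25 (18.4%), Tnfrsf1a 11 (41.9%), Il21r 7 (52.3%) and Tnfrsf9 4 (68.1%), and the median over all windows was 7. Short motifs were searched on both strands. A STAT-type motif, TTCNNNGAA, occurred once in the 5 windows, as TTCCGTGAA 244 bases before the start of Tnfrsf1a, and 8.47% of all windows hold it. The NF-kappaB core GGANNNTCC (8.57% of all windows), the GATA motif AGATAA or TGATAA (19%), the AP-1 motif TGANTCA (7.93%) and the TATA box TATAAA (14.2%) were not found in these 5. No occurrences of different motifs overlapped in them, and a match of letters is a description and not a binding site. RefSeq windows were matched for 48 of the 59 members and 23 of the 32 expressed ones.

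Of the 59 receptors, 32 were expressed at a mean of at least 10 normalized read counts over the 6 libraries and were tested, 18 from the interleukin and 14 from the TNF receptor group. Another 9 lay under this filter with more than 3 reads in some library, and 18 had no more than 3 reads in any library, the floor used here. The expressed receptors spanned a wide range, from a WT mean of 5443 normalized read counts for Tnfrsf9 to 18.0 for Il11ra1.

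**Figure D1:**
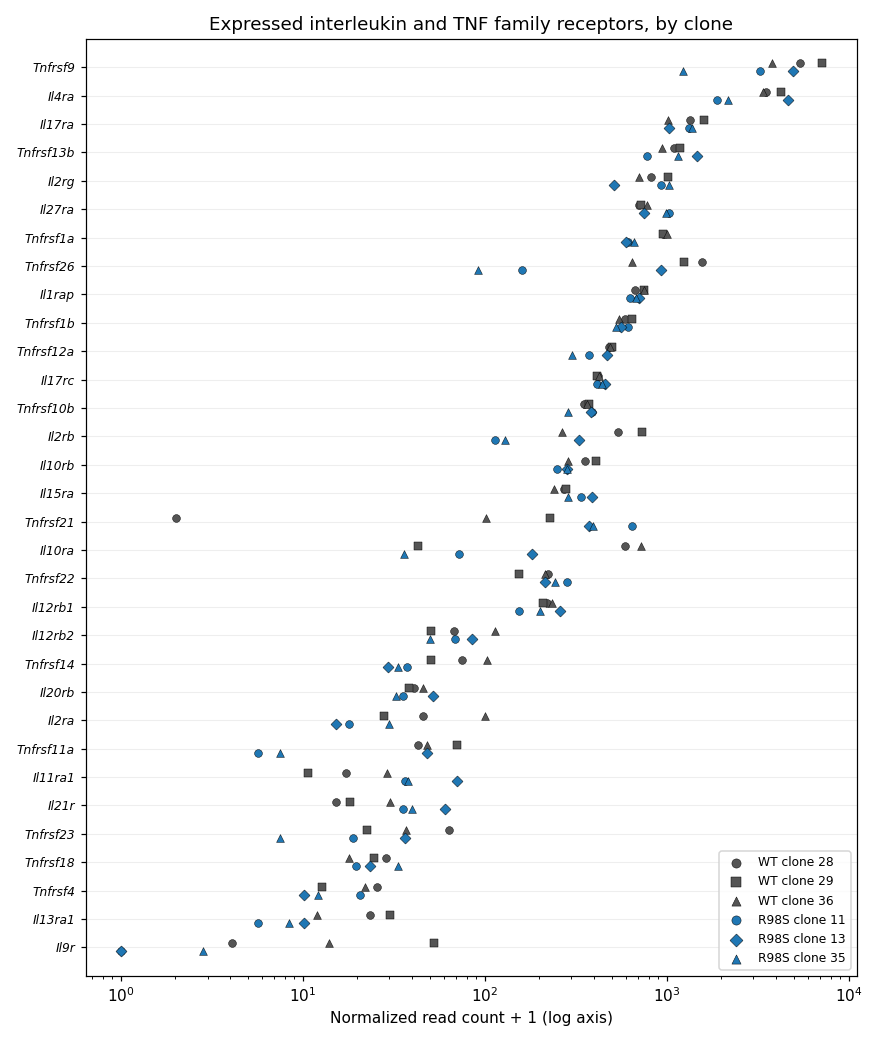
Normalized read count plus 1, on a log axis, of the 32 expressed receptors in each of the 3 WT clones (grey) and 3 R98S clones (blue), ordered by mean. The R98S clones of Tnfrsf1a form a tight group below the WT clones, and WT clone 28 stands far to the left for Tnfrsf21.

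Per kilobase of exon, the WT clones expressed Tnfrsf9 at 2000 ± 616 normalized read counts (SD, n = 3), above every other receptor. Next in WT cells were Il4ra at 621 ± 77.1, Tnfrsf13b at 379 ± 42.9, Tnfrsf1a at 374 ± 12.7, Tnfrsf26 at 357 ± 143 and Il2rg at 356 ± 67.3 per kilobase, and the last 4 of these do not differ beyond their spread. Tnfrsf12a followed at 254 ± 5.86 and Il27ra at 210 ± 10.4 per kilobase. Il17rc at 157 ± 1.82, Tnfrsf1b at 155 ± 12.6 and Il17ra at 152.5 ± 33.7 per kilobase lay within each other's spread. The order in R98S clones began with Tnfrsf9 at 1156 ± 681 and Il4ra at 484 ± 250 per kilobase, which overlap within their spread.

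Between R98S and WT clones, 8 of the 32 tested receptors (25%) passed the threshold of an adjusted p under 0.1 in limma, against 23.9% of the 11550 genes tested. Higher in R98S were 2, Il11ra1 and Il21r, against 10.7% of all genes. Lower were 6 (18.8%), Tnfrsf1a, Tnfrsf14, Il9r, Il2rb, Tnfrsf26 and Il13ra1, against 13.1% of all genes. These shares are near the background and are no result about the family as a whole. Il9r and Il13ra1 had an R98S mean under 10 and entered the test only through their WT level, so the count of lower receptors is in part fixed by the filter. The fold change was negative for 23 receptors and positive for 9, with a median log2 fold change of -0.14 against -0.01 over all genes tested.

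**Figure D2:**
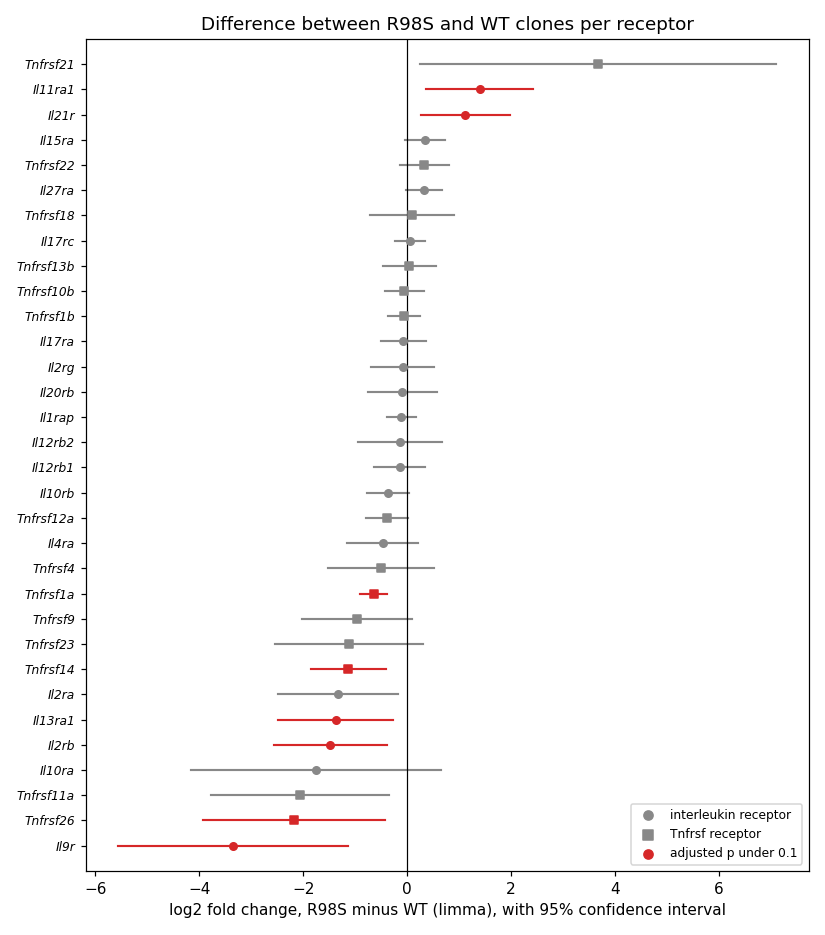
Log2 fold change (R98S minus WT, limma on log2(normalized read count + 1)) of the 32 tested receptors with 95% confidence intervals, in red where the adjusted p is under 0.1. Tnfrsf1a has a short interval at -0.64, while Tnfrsf21 at 3.67 and Il9r at -3.35 have wide ones.

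Among the type I interleukin receptors, 12 of 18 were expressed, 2 rose and 3 fell (41.7% called, against 23.9% of all genes tested). Il4ra (chr7:125552120-125579474), the chain that binds interleukin-4, was the most abundant. The WT clones 28, 29 and 36 measured 3531, 4259 and 3400 normalized read counts, and the R98S clones 11, 13 and 35 measured 1900, 4629 and 2180. Values per clone follow this order throughout. Clones 11 and 35 lay below all WT clones and clone 13 above them. The log2 fold change was -0.47 (SE 0.301, adjusted p = 0.319). Part of its exons, 571 bases, lies opposite an antisense gene, and whether counting used the strand is not stated.

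Il13ra1 (chrX:36112110-36171259), which pairs with Il4ra in the receptor for interleukin-13, fell from 22.5, 29.0 and 11.0 normalized read counts in the WT clones to 4.69, 9.19 and 7.40 in the R98S clones. All R98S clones lay below all WT clones, by 2.94-fold in the means. Its log2 fold change of -1.37 (SE 0.48, adjusted p = 0.0906) is just inside the threshold. The call was lost without WT clone 28 or 29 or R98S clone 11 or 35 (adjusted p = 0.238, 0.274, 0.226 and 0.161), with no filter (0.156) and in DESeq2 (0.155), over a range of 0.0511 to 0.274.

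The common gamma chain Il2rg (chrX:101264378-101268255), shared by the receptors for interleukins 2, 4, 7, 9, 15 and 21, did not pass the test. It measured 823, 1021 and 703 normalized read counts in the WT clones and 931, 515 and 1032 in the R98S clones, with full overlap (log2 fold change -0.08, 95% confidence interval -0.69 to 0.52, adjusted p = 0.854). It shares 728 exon bases on the same strand with a predicted gene, Gm20489.

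Il2rb (chr15:78479256-78495271), the signalling chain for interleukins 2 and 15, fell in R98S clones. The WT clones had 539, 732 and 265 normalized read counts and the R98S clones 114, 331 and 128. R98S clone 13 lay above WT clone 36, so the groups overlap, while the means differed by 2.69-fold (512 ± 235 in WT, 191 ± 122 in R98S, SD, n = 3). The log2 fold change was -1.48 (SE 0.475, adjusted p = 0.0724). Over the alternatives the adjusted p ranged from 0.01 to 0.212. The call was lost without the intensity trend (0.121), without WT clone 28 (0.178) or 29 (0.201) and without R98S clone 11 (0.212) or 35 (0.193).

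Of the private alpha chains of these receptors, Il2ra had a negative and Il15ra a positive value, neither called in limma. Il2ra, the high-affinity chain for interleukin-2, had means of 57.0 ± 37.6 in WT and 19.9 ± 7.67 in R98S (log2 fold change -1.33, adjusted p = 0.111), a difference that edgeR (adjusted p = 0.0964) and DESeq2 (0.0683) called (range over alternatives 0.0683 to 0.245). Il15ra, the interleukin-15 chain whose gene lies 12.1 kb from Il2ra on chromosome 2, had 264 ± 21.3 in WT and 339 ± 51.5 in R98S. Its R98S clones lay above all WT clones without a call (log2 fold change 0.35, adjusted p = 0.198).

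Il9r (chr11:32187541-32200279), the interleukin-9 chain, was nearly silent in R98S clones. It measured 3.07, 51.6 and 13.0 normalized read counts in the WT clones, and 0, 0 and 1.85 in the R98S clones. All R98S libraries lie under the floor of 3 reads, so the WT mean was at least 7.82-fold higher, with that floor taken per library. WT clone 28 itself held 3 reads, at that floor, and R98S clone 35 held 2, so these clones cannot be told apart. The test gave adjusted p = 0.0517. Most of the WT level came from clone 29, without which the mean fell under the filter and no test was made. The call was lost without WT clone 36 (adjusted p = 0.102) and without R98S clone 11 (0.144) or 13 (0.104), over a range of 0.0091 to 0.144.

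Il21r (chr7:125603429-125633570), the interleukin-21 chain, rose in R98S clones. It measured 14.3, 17.2 and 29.0 normalized read counts in the WT clones and 34.7, 59.2 and 38.9 in the R98S clones, with no overlap. The ratio of means was 2.19 (log2 fold change 1.12, SE 0.372, adjusted p = 0.0795). The call held without WT clone 36 (0.0505) and was lost without any other clone (0.125 to 0.229), with no filter (0.144), with the regional shift removed (0.144) and in DESeq2 (0.126). The range over all alternatives was 0.0505 to 0.229.

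Il11ra1 (chr4:41699989-41769474), the interleukin-11 chain that signals with gp130, was the other receptor that rose. It had 16.4, 9.67 and 28.0 normalized read counts in the WT clones and 35.7, 69.4 and 37.0 in the R98S clones, again without overlap (ratio of means 2.63, log2 fold change 1.4, SE 0.451, adjusted p = 0.0736). The call held without WT clone 36 (0.0438). It was lost without any other clone (adjusted p from 0.121 to 0.201), with no filter (0.11) and with the regional shift removed (0.18), over a range of 0.0438 to 0.201. These reads are uncertain in origin: 2578 of the 2605 bases of its longest transcript have a copy of at least 97% identity in Gm13305 and 1069 in Il11ra2, and Il11ra2 itself was listed at 0 in every library. The partner gp130, encoded by Il6st, was under the filter. Il6st had 6.14, 2.15 and 9.01 normalized read counts in the WT clones and 4.69, 5.10 and 7.40 in the R98S clones.

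Il27ra, which binds interleukin-27 together with gp130, measured 709, 718 and 776 normalized read counts in the WT clones and 1032, 746 and 995 in the R98S clones. R98S clones 11 and 35 lay above all WT clones and clone 13 within their range (log2 fold change 0.32, adjusted p = 0.188). Il12rb1 and Il12rb2, the chains for interleukin-12, had means of 220 ± 11.9 and 76.4 ± 32.9 in WT and 204 ± 51.8 and 67.1 ± 17.8 in R98S, with log2 fold changes of -0.14 and -0.13. Exons of Il12rb2 share 1519 bases with Serbp1 on the opposite strand.

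None of the 3 expressed type II receptors passed the test. Il10ra, the interleukin-10 chain, varied widely between the WT clones. Its means were 451 ± 361 in WT and 96.0 ± 76.3 in R98S (log2 fold change -1.75, SE 1.04, adjusted p = 0.288). WT clone 29 had 41.9 normalized read counts while WT clones 28 and 36 had 591 and 722. Without that clone the log2 fold change was -3.06 and the adjusted p 0.0272 (range over alternatives 0.0272 to 0.563). Il10rb, the shared second chain, had 351 ± 61.8 in WT and 271 ± 19.8 in R98S with no overlap between clones (log2 fold change -0.36, adjusted p = 0.2), and 569 of its exon bases lie in Gm21970 as well. Il20rb was at 40.9 ± 3.80 and 39.1 ± 10.5.

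Of the interleukin-1 family, Il1rap alone passed the filter. This chain is the partner that interleukin-1 and interleukin-33 receptors need for signalling. It measured 669, 754 and 755 normalized read counts in the WT clones and 627, 707 and 681 in the R98S clones, with overlap (log2 fold change -0.11, 95% confidence interval -0.39 to 0.17, adjusted p = 0.569). The binding chains it serves were at or near 0: Il1r1 and Il1rl2 had 1 read in a single library each and Il1rl1 had 1 to 5 reads per library.

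In the interleukin-17 family, the common chain Il17ra and its partner Il17rc were expressed, and neither passed the test. Il17ra measured 1347, 1599 and 1017 normalized read counts in the WT clones and 1333, 1028 and 1380 in the R98S clones. The log2 fold change was -0.07, with a 95% confidence interval of -0.51 to 0.36 (adjusted p = 0.829). Il17rc measured 420, 414 and 423 in the WT clones and 416, 457 and 441 in the R98S clones (log2 fold change 0.06, interval -0.23 to 0.35, adjusted p = 0.766). Il17rb, Il17rd and Il17re were under the filter.

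Among the TNF receptors with a death domain, Tnfrsf1a (chr6:125349362-125362484), the main receptor for soluble TNF, fell. It measured 950.3, 951 and 1008 normalized read counts in the WT clones and 612, 595 and 659 in the R98S clones. The groups do not overlap, and the clones of each group lie close together (969.7 ± 33.0 in WT, 622 ± 33.0 in R98S, SD, n = 3). The WT mean was 1.56-fold the R98S mean (log2 fold change -0.64, SE 0.113, adjusted p = 0.0113). This call held under every alternative listed in the closing section, without each clone in turn included, with adjusted p from 5.4e-05 to 0.0551.

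Tnfrsf10b, the mouse receptor for TRAIL, had 362 ± 10.3 normalized read counts in WT and 352 ± 57.3 in R98S (log2 fold change -0.05, interval -0.43 to 0.32). Tnfrsf21, also known as death receptor 6, was higher in every R98S clone than in any WT clone but did not pass the threshold. It had 1.02, 229 and 100.1 normalized read counts in the WT clones and 646, 376 and 395 in the R98S clones. WT clone 28 held a single read. The log2 fold change was 3.67 with an SE of 1.49 (adjusted p = 0.135). Without WT clone 28 it was 1.59 (adjusted p = 0.0575), and without WT clone 29 it was 5 (adjusted p = 0.0695), over a range of 0.0575 to 0.323.

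Among the TNF receptors that bind TRAF proteins, 8 of 12 were expressed and Tnfrsf14 fell (12.5% called, against 23.9% of all genes tested). Tnfrsf9 (chr4:150914562-150946102), the costimulatory receptor 4-1BB, was the most abundant receptor of all. It measured 5434, 7125 and 3770 normalized read counts in the WT clones and 3268, 4936 and 1232 in the R98S clones. Clones 11 and 35 lay below all WT clones, and clone 13 lay between WT clones 36 and 28 (log2 fold change -0.96, SE 0.462, adjusted p = 0.196). Without clone 13 the log2 fold change was -1.39 and the adjusted p 0.0706 (range over alternatives 0.0706 to 0.416).

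Tnfrsf14 (chr4:154921933-154928563), a receptor for LIGHT, measured 73.7, 49.4 and 102 normalized read counts in the WT clones and 36.6, 28.6 and 32.4 in the R98S clones. All R98S clones lay below all WT clones, and the means differed by 2.31-fold (log2 fold change -1.13, SE 0.317, adjusted p = 0.0483). Leaving out WT clone 28 (adjusted p = 0.142) or 36 (0.112), or R98S clone 11 (0.1001) or 35 (0.108), ended the call, over a range of 0.0333 to 0.142.

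Tnfrsf13b, the receptor TACI for BAFF and APRIL, measured 1100, 1182 and 943 normalized read counts in the WT clones and 778, 1471 and 1160 in the R98S clones, with overlap (log2 fold change 0.04, interval -0.47 to 0.55, adjusted p = 0.925). Tnfrsf1b, the second TNF receptor, measured 591, 643 and 546 in the WT clones and 615, 563 and 525 in the R98S clones (log2 fold change -0.06, interval -0.37 to 0.24, adjusted p = 0.772). The groups overlapped for both of these receptors. Tnfrsf12a, the TWEAK receptor, did not overlap. Its WT clones had 481, 503 and 486 normalized read counts and its R98S clones 372, 469 and 303 (log2 fold change -0.39, adjusted p = 0.178).

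Tnfrsf11a (chr1:105780718-105847981), the receptor RANK, lay just outside the threshold. It had 42.0, 69.9 and 47.0 normalized read counts in the WT clones and 4.69, 46.9 and 6.48 in the R98S clones (log2 fold change -2.06, SE 0.746, adjusted p = 0.101). Clones 11 and 35 held a small part of any WT level and clone 13 lay within the WT range. Without clone 13 the log2 fold change was -3.01 and the adjusted p 0.00632 (range over alternatives 0.00632 to 0.271). Tnfrsf18 and Tnfrsf4, the neighbouring costimulatory receptors GITR and OX40, were low, with means of 22.8 ± 5.37 and 19.1 ± 6.58 in WT and 24.5 ± 7.04 and 13.3 ± 5.60 in R98S (log2 fold changes 0.09 and -0.50).

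Tnfrsf22, Tnfrsf23 and Tnfrsf26 are mouse genes for receptors without a death domain and lie side by side on chromosome 7. Tnfrsf26 (chr7:143607659-143628722) fell. It measured 1554, 1248 and 647 normalized read counts in the WT clones and 159, 926 and 90.7 in the R98S clones. Clone 13 lay within the WT range, while clones 11 and 35 lay far below (log2 fold change -2.18, SE 0.76, adjusted p = 0.0905). edgeR gave adjusted p = 0.212 and DESeq2 0.293, without the intensity trend it was 0.151, and without WT clone 28 or 29 or R98S clone 11 or 35 it was 0.22, 0.197, 0.243 and 0.234. Without R98S clone 13 it was 0.00666, the lowest of this range.

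Its neighbours did not pass the test. Tnfrsf23, 37.1 kb from Tnfrsf26, measured 62.5, 21.5 and 36.0 normalized read counts in the WT group and 17.8, 35.7 and 6.48 in the R98S group (log2 fold change -1.12, adjusted p = 0.257). Tnfrsf22, 6.08 kb from Tnfrsf26, had a positive value, with 197 ± 37.6 in WT and 246 ± 35.7 in R98S (log2 fold change 0.33, adjusted p = 0.306). The 30 tested genes nearest to the 3 receptors had a median log2 fold change of 0.42. Part of the Tnfrsf22 transcript, 18.4%, has copies of the same least identity in other genes, and exons of Tnfrsf23 and Tnfrsf26 share 164 and 107 bases with an antisense gene, so their reads are uncertain to that extent.

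Values of the 3 R98S clones split the same way for several receptors. In 8 of the 32 tested receptors (25%), clones 11 and 35 lay below every WT clone and clone 13 did not, against 7.61% of all genes tested. They were Tnfrsf9, Il4ra, Tnfrsf26, Il2rb, Il12rb1, Il20rb, Tnfrsf11a and Tnfrsf23. For Il12rb1, clone 35 had 199.8 normalized read counts against 208.5 in WT clone 29, the lowest of its group. For Il20rb, clones 11 and 35 had 34.7 and 31.5 against 37.6 in WT clone 29, again the lowest. Both therefore count toward this share on small differences. The opposite split, clones 11 and 35 above every WT clone and clone 13 not, held for 2 receptors, Il27ra and Tnfrsf22, against 7.45% of genes. The first split varied between the related lists. It held for 6 of 18 Janus kinases, STATs and SOCS genes (33.3%), 2 of 7 TNF family ligands (28.6%) and 1 of 7 interleukins (14.3%). It also held for 1 of 12 interleukin-1 and interleukin-17 adaptors (8.33%) and 1 of 19 TNF receptor adaptors (5.26%). It held for 0 of 5 TNF receptors with other names, 0 of 8 cytokine receptor chains and 0 of 11 NF-kappaB genes. It was noticed after the values were seen and was not tested. The shares are a description, since the receptors are not independent of each other, and Tnfrsf23 and Tnfrsf26 are neighbours.

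**Figure D3:**
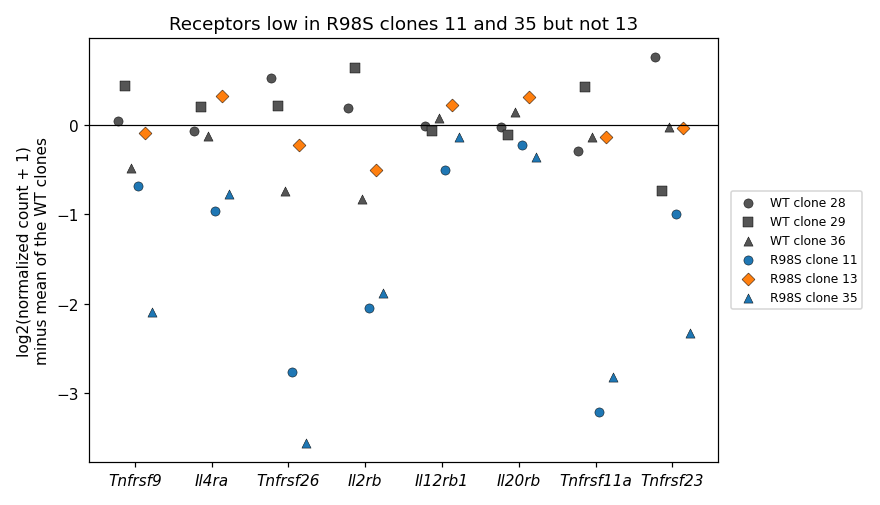
Log2(normalized read count + 1) of each clone minus the mean of the 3 WT clones for the 8 receptors that were low in R98S clones 11 and 35 but not 13. R98S clone 13 (orange) lies at or near the WT clones for every receptor shown. Clones 11 and 35 (blue) lie below them, by little for Il20rb and for clone 35 of Il12rb1.

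Without R98S clone 13, which left 2 R98S clones, 12 of 33 tested receptors (36.4%) passed the threshold, 2 higher and 10 lower, against 27.9% of the genes tested in the same way. Il4ra then had a log2 fold change of -0.87 (adjusted p = 0.0107, range over alternatives 0.0107 to 0.685), and Il27ra one of 0.47 (0.0362, range 0.0243 to 0.415). Tnfrsf12a had one of -0.55 (0.0472, range 0.0472 to 0.383). Tnfrsf1a kept its value, at -0.61 (adjusted p = 0.0175). Clone 13 was singled out here because of the splits above, which its values define. For receptors of those splits, a smaller adjusted p without clone 13 follows in part from that choice and is no support for them. The same holds for the values without clone 13 given above for Tnfrsf9, Tnfrsf11a and Tnfrsf26.

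Over all 6 clones, 10 of the 32 receptors (31.2%) did not overlap between the groups, 4 higher and 6 lower in R98S, against 37.3% of all genes. Beside 6 of those called, these were Tnfrsf21 and Il15ra with higher values and Tnfrsf12a and Il10rb with lower values in R98S. Some neighbouring receptor genes differed in sign. Il21r, which rose, starts 24 kb after the end of Il4ra, whose log2 fold change was -0.47, and Il15ra lies beside Il2ra with values of 0.35 and -1.33. Il4ra, Il15ra and Il2ra were not called in limma (adjusted p = 0.319, 0.198 and 0.111), so their signs are uncertain.

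Silent receptors came from every family but the interleukin-17 receptors. With no more than 3 reads in any library were Il6ra, Il5ra, Il13ra2, Il23r and Il11ra2 of type I, Il20ra, Il22ra1 and Il22ra2 of type II, and Il1r1, Il1r2, Il1rl2, Il1rapl1, Il1rapl2, Il18r1 and Il1rn of the interleukin-1 family. Of the TNF receptors, Tnfrsf25, Tnfrsf19 and Tnfrsf11b were silent. Il20ra had no read at all. Il11ra2 is also listed at 0, but all 1299 bases of its longest transcript have a copy of at least 97% identity in Il11ra1 and in Gm13305, so with the mapping filter its level could not be measured. At this depth a transcript below 3 reads per library cannot be told from absence, and no fold is given for these genes.

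Of the 9 receptors between the floor and the filter, Tnfrsf8, the receptor CD30, reached the most reads, 20 in R98S clone 11 and 18 in clone 35, against 3 in clone 13 and 4 to 6 in the WT clones. Tnfrsf17, the plasma cell receptor BCMA, had 1, 0 and 3 reads in the WT clones and 6, 4 and 6 in the R98S clones. Its groups do not overlap, and with the floor of 3 reads per library in place of the WT level it was at least 1.64-fold higher in R98S. Il17rd had 4, 1 and 1 reads in the WT clones and 1, 0 and 1 in the R98S clones, at or under the floor in all but 1 library. Il17re, Tnfrsf13c, Il18rap, Il17rb, Il1rl1 and Il31ra had between 0 and 11 reads per library with overlapping groups.

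Ligands and signalling genes around the receptors were taken from lists. Of 7 expressed TNF family ligands, 1 rose and 2 fell (42.9% called, against 23.9% of all genes tested, median log2 fold change -0.19). Tnfsf4, the ligand of OX40, measured 29.7, 19.3 and 87.1 normalized read counts in the WT clones and 561, 333 and 309 in the R98S clones, without overlap. The mean was 8.84-fold the WT mean (log2 fold change 3.35, SE 0.509, adjusted p = 0.00666, called in each alternative). Tnfsf9, the ligand of 4-1BB, fell from 346 ± 20.2 to 203 ± 10.8 (log2 fold change -0.77, adjusted p = 0.0146), and Tnfsf13b, which encodes BAFF, from 255 ± 37.3 to 154 ± 29.4 (-0.73, 0.0481). Tnf, Ltb, Lta and Tnfsf14 were expressed and did not pass the test.

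Of 33 listed interleukins, 7 were expressed and Il34, a ligand of the CSF1 receptor, fell (14.3% called). Its R98S mean of 9.16 was under the filter, so it entered the test only through its WT level. It had 119, 32.2 and 275 normalized read counts in the WT clones and 2.82, 16.3 and 8.33 in the R98S clones (log2 fold change -3.60, SE 0.808, adjusted p = 0.0245). Il18 had 0 reads in all 3 WT clones and in R98S clones 13 and 35, and 832 normalized read counts in R98S clone 11 alone. It was picked out after its values were seen.

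Among receptor chains outside the naming rule, Csf2rb and Csf2rb2, the beta chains that serve interleukin-3, both rose and were far more abundant than any of the 59 receptors. Csf2rb went from 51880 ± 7386 to 74700 ± 7975 normalized read counts (log2 fold change 0.53, adjusted p = 0.0509) and Csf2rb2 from 41050 ± 1541 to 63210 ± 6523 (0.62, 0.0178). Reads could be split between this pair of near-identical paralogs. Of the 8 expressed chains in that list (50% called, against 23.9% of all genes tested), 2 rose and 2 fell, the interferon receptor chains Ifngr2 (log2 fold change -0.86, adjusted p = 0.0605) and Ifnar2 (-0.45, 0.0916). Of 5 expressed TNF receptors with other names, the death receptor Fas (-0.77, 0.0789) and Eda2r (-3.37, 0.0141) fell (40% called). Eda2r, with an R98S mean of 4.19, passed the filter only through its WT mean of 71.6.

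Among 18 expressed Janus kinases, STATs and SOCS genes, 1 rose and 2 fell (16.7% called, against 23.9% of all genes tested, median log2 fold change -0.08). Socs1, an inhibitor of Janus kinases that STATs induce, rose from 708 ± 82.1 to 1248 ± 73.3 normalized read counts (log2 fold change 0.82, adjusted p = 0.00739). Stat2 (-0.86, adjusted p = 0.0132) and Socs6 (-0.38, 0.0465) fell. Of 12 interleukin-1 and interleukin-17 adaptors, Myd88 rose (0.40, 0.0407) and Tab1 fell (-0.75, 0.0199), again 16.7% called.

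Of 19 expressed TNF receptor adaptors, 2 rose and 4 fell (31.6% called, against 23.9% of all genes tested, median log2 fold change -0.05). Rbck1, a subunit of the linear ubiquitin ligase (0.40, adjusted p = 0.0495), and Fadd, the death domain adaptor (0.69, 0.0893), rose. Cflar, the inhibitor of caspase-8 (-0.49, 0.0462), the deubiquitinase Cyld (-0.68, 0.0142) and Birc3 (-0.56, 0.0797) fell. Traf1 fell most of this list, from 577 ± 239 to 134 ± 61.9 normalized read counts (-2.12, 0.0179). Among 11 NF-kappaB subunits and inhibitors, the inhibitor Nfkbia fell, with 1831, 2640 and 826 normalized read counts in the WT clones and 469, 488 and 288 in the R98S clones (-1.97, 0.0177), and no other gene of this list was called (9.09% called).

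Of the 22 calls in these lists, 10 held under every alternative that tested them, those of Tnfsf4, Tnfsf9, Il34, Csf2rb2, Eda2r, Socs1, Stat2, Tab1, Traf1 and Nfkbia. The other 12 were lost in at least 1. Csf2rb lost its call without WT clone 28 or 36 or R98S clone 11 (adjusted p up to 0.193), Rbck1 without WT clone 28 or 29 (up to 0.164) and Socs6 without WT clone 28, with no filter and with the regional shift removed (up to 0.192 over these settings). Myd88 and Cflar lost it without WT clone 28 or 29 or R98S clone 35 (up to 0.148 and 0.146), and Cyld with the regional shift removed (0.231). Fas, Ifngr2, Ifnar2, Tnfsf13b, Fadd and Birc3 each lost it without any of 4 or 5 of the clones, with adjusted p up to 0.137 for Tnfsf13b and 0.283 for Ifnar2.

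**Figure D4:**
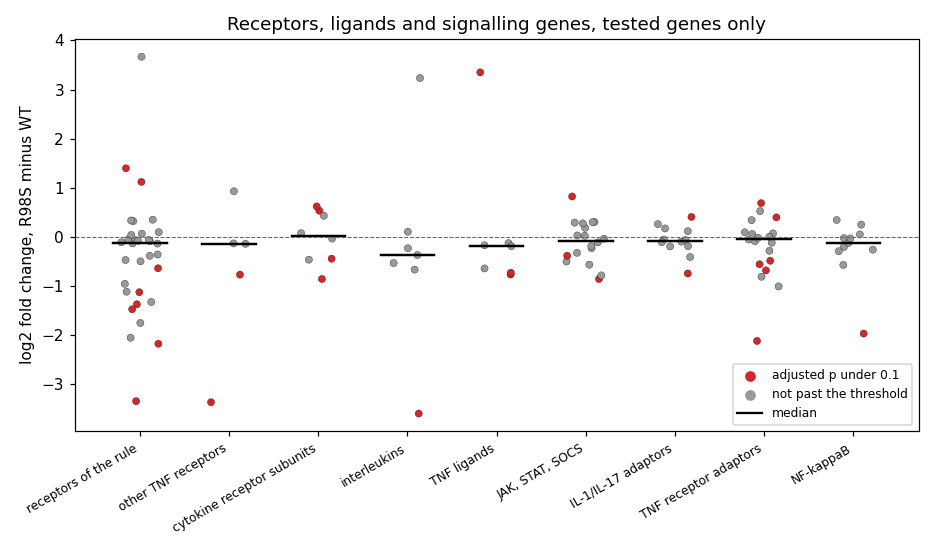
Log2 fold change (R98S minus WT) of each tested gene in the receptor group and in 8 lists of related receptors, ligands and signalling genes, with the median of each as a bar and calls in red. Medians lie between -0.37 and 0.02, while single genes such as Tnfsf4 at 3.35 and Il34 at -3.60 lie far from it.

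Some lists of cell type markers differed between the groups and others overlapped, and their part in the receptor differences was not tested. Of the B cell markers, Cd79a and Cd79b passed the filter. The summed level of that list was 1297 to 1407 normalized read counts in WT and 1647 to 1969 in R98S clones. Cd79b rose (log2 fold change 1.22, adjusted p = 0.0617), 1 of 2 tested (50%, against 23.9% of all genes tested). Its groups overlapped, with 396 in WT clone 28 and 386 in R98S clone 35. The call was lost without R98S clone 13 (0.138), and the adjusted p reached 0.175 over the alternatives. Among 10 T cell markers 3 were tested and all 3 rose (100%, against 10.7% of all genes tested). That list summed to 64.5 to 123 in WT and 196 to 250.1 in R98S, with Cd4 and Cd8b1 at or near 0. Among the T cell markers under the filter, Cd3g (3.07, 3.22 and 43.0 normalized read counts in WT, 0.94, 1.02 and 1.85 in R98S) lay lower in every R98S clone than in any WT clone, as did Cd3e and Cd5, which had no more than 3 reads in any library. The granulocyte list summed to 554 to 1009 in WT and 46.3 to 156 in R98S, with Ly6g at 0. Of its 8 markers 4 were tested and all 4 fell (100%, against 13.1% of all genes tested). Of these 4, Ctsg, S100a8 and S100a9 had R98S means of 0, 0.31 and 1.27. They passed the filter only through WT, so that count is in part fixed by the filter. The mast cell and basophil sum, mostly Gata2, was 27470 to 31540 in WT and 16110 to 17580 in R98S, with Kit and Fcer1a at or near 0. Of the 6 tested markers in that list, Gata2 alone was called (16.7%), while 2 had a positive and 4 a negative log2 fold change. Macrophage markers summed to 262 to 524 in WT and 92.9 to 266 in R98S, and erythroid and megakaryocytic markers to 5254 to 12760 and 6157 to 9921. The groups overlapped in both of these sums. Of 4 tested macrophage markers, all had negative values and 2 were called (50%, against 23.9% of all genes tested). They were Fcgr1 (log2 fold change -3.44, adjusted p = 0.00553) and Lyz2 (-3.34, 0.0366). Of 5 tested erythroid and megakaryocytic markers, 3 had positive and 2 negative values, and Hba-a1 alone was called (-3.52, 0.0389, 20% called). Fcgr1, Lyz2 and Hba-a1 had R98S means of 2.26, 0.93 and 2.35 and passed the filter only through WT. Each culture grew from a single cell, and in bulk RNA a marker expressed in fewer cells cannot be told from less RNA per cell.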

How the data were processed

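Total mRNA was sequenced from 6 monoclonal cultures, 3 per RPL10 form, with 1 library each on an Illumina HiSeq instrument. The authors removed ribosomal and transfer RNA reads with Bowtie2, aligned the rest to mm10 with TopHat, kept primary alignments of good mapping quality and counted reads on exons. HTSeq is named in the submitters' processing notes, while the annotation and the strand setting are not given in the sources used here. The mapping filter lowers genes with near-identical copies. Each deposited value is the signal of a gene, which the authors made by dividing read counts by DESeq2 size factors.

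In each library 100% of values above 0 were whole multiples of 1 step (tolerance 0.01 reads), so reads were recovered. Depth was alike, and the spread between clones limits precision for genes well above the floor of 3 reads, which covers counting error only. Whether clones are the only source of spread cannot be told, since each has 1 library.

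Genes with a mean of at least 10 normalized read counts (11550) were tested with limma 3.58.1 (R 4.3.3) on log2(normalized read count + 1) with an intensity trend, two-sided, with Benjamini-Hochberg adjustment over all of them and a threshold of 0.1. Fold changes on this scale understate those of weakly expressed genes. Every adjusted p is from this fit unless another tool or setting is named. The scripts were tested on simulated data. Alternatives were pseudocounts of 0.5 and 5, no filter, a mean of at least 50, equal library totals or equal upper quartiles, no intensity trend, edgeR 4.0.16 (quasi-likelihood, TMM) and DESeq2 1.42.0 (Wald) on the recovered reads, subtraction of the regional shift (the median over the 30 nearest genes), each clone left out, and a threshold of 0.05. Recomputing the related gene lists under these was added after seeing the data.

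The members and lists were chosen with earlier results of these data known. Values per clone are given for members called in limma and for the 12 of highest mean, and others by their means and fold change. Further per-clone values (Tnfrsf11a, Tnfrsf21, Tnfrsf23, Il10ra, Il12rb1, Il20rb, and genes of the lists) were chosen after they were seen. Genes under the filter are given by reads. Of the related lists, called genes are named. One marker gene of the lists is not reported here. Gene positions and exon lengths are from GENCODE vM21 (GRCm38), matched by symbol.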

Additional observations from a re-analysis of the deposited data

How the results depend on the processing

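The numbers of receptors called higher and lower, 2 and 6, did not change with pseudocounts of 0.5 or 5, with either scaling or in edgeR, although in edgeR Tnfrsf26 lost its call and Il2ra gained one. Called higher were 0 with no filter, 0 with a minimum mean of 50, 0 at a threshold of 0.05, 1 in DESeq2 and 1 with the regional shift removed. Called lower were 2 at a threshold of 0.05, and 4 to 7 under the other settings that keep all clones. Leaving out each clone gave 0 to 2 higher and 1 to 10 lower, with 1 lower without R98S clone 11, 2 without R98S clone 35 or WT clone 28, and 10 without R98S clone 13. Non-overlapping receptors numbered 6 rather than 10 with a minimum mean of 50, where fewer genes were tested, and 12 to 20 with each clone left out. Expressed receptors numbered 22 with that minimum and 31 to 33 with each clone left out. In the related lists, 7 genes were called higher and 15 lower, and leaving out each clone gave 4 to 9 and 9 to 19.

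Of 501 values for single receptors, 425 kept direction and side of the threshold, 40 lost the call, 15 gained it and 21 changed sign, all of receptors without a call, and the cause was not tested. With the regional shift removed the log2 fold change became 0.23 for Il12rb1, 0.16 for Il17ra, 0.048 for Il1rap, 0.042 for Tnfrsf10b, -0.0080 for Tnfrsf13b, -0.040 for Tnfrsf18 and -0.073 for Tnfrsf22. With each clone left out in turn it ran from -0.32 to 0.047 for Il12rb1, -0.40 to 0.19 for Il12rb2, -0.25 to 0.080 for Il17ra, -0.29 to 0.046 for Il20rb, -0.28 to 0.22 for Il2rg, -0.12 to 0.091 for Tnfrsf10b, -0.17 to 0.29 for Tnfrsf13b and -0.12 to 0.26 for Tnfrsf18. Scaling to the same upper quartile moved the share of higher calls over all genes from 45% to 52.1%, and both scalings left the median of all genes within 0.1. No paired analysis was possible because the clone numbers differ between the groups. Receptors under 3 reads are beyond what this depth can compare.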
